A study of Mus musculus with 10 samples.

Results

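The tails of the 2 forms of the kinesin Kif1b, Kif1bα and Kif1bβ, were compared in N2A cells, a mouse neuroblastoma line that grows neurites. The comparison rests on 4 of the 10 libraries of the study: soma and neurites of cells transfected with the Kif1bα tail, and soma and neurites of cells transfected with the Kif1bβ tail. Each tail was expressed from a pEGFP-C1 plasmid without its motor domain, neurites grew for 48 h through a porous membrane before the fractions were separated, and libraries were made from 300 ng of total RNA. The other 6 libraries, from cells given a piece of DMPK without CTG repeats (CTG0), a piece with 480 repeats (CTG480) or the tail of Kif1c, in both fractions, are used below only as side values, and they went through the same transfection and growth. Transfection was transient, so each library also holds RNA of cells that took up no plasmid, and no library of untransfected cells was analysed here. Rows were summed by gene, and 9853 of 13698 genes had a mean of at least 5 TPM, an abundance scaled to transcript length and to the library's total, over the 10 libraries. Of these, 9462 had a protein-coding RefSeq row and 391 had none.

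Each transfection gave 1 soma and 1 neurite library, so no difference between the tails has a replicate check and no p-value is given. A difference was counted when it reached 0.5 on the log2 scale (1.41-fold), with 0.1 TPM added to every value. The localization ratio of a gene is log2(neurite/soma) within a transfection, and the difference of localization ratios is the value with the Kif1bα tail minus the value with the Kif1bβ tail. TPM without counts were used, and sequencing depth is therefore unknown. In fractions of bulk cultures, fewer neurites and less RNA per neurite cannot be told apart.

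Kif1b belongs to the kinesin-3 family, motors that carry cargo along microtubules toward the plus end, which in axons lies at the tip. Its transcripts share the motor domain and part at the tail, the portion that binds cargo: the α form is known for carrying mitochondria, and the β form for carrying precursors of synaptic vesicles. A tail that lacks the motor can occupy cargo or adaptors without moving them, and the study used such tails as dominant negatives. The question was whether the Kif1bα tail shifts mRNAs bound by the RNA-binding protein MBNL1 between soma and neurites, with the Kif1bβ tail as the control.

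The sequences below show where the annotated coding sequences of the 2 forms part at the tail, the region after which the transfected tails are named. Kif1b lies on chromosome 4 from 149176319 to 149307773 (mm10), on the minus strand. In GENCODE transcripts matched to RefSeq, both forms read through the last shared coding base at 149245338. The α form, NM_008441, continues in an exon that starts at 149238483 and has 491 codons of its own out of 1150. The β form, NM_001290995, continues at 149226356 with 1111 codons of its own out of 1816. The 12 shared bases are in lower case and the first 18 bases of each separate end are in capitals:
Kif1b α form: cagcagagactgGACGCGGATTCTGATAGC
Kif1b β form: cagcagagactgGACTACGAGAGTAAATTG
The forms also differ upstream, with 659 codons before this point in the α form and 705 in the β form. The sequence of the inserts was not checked, nor which annotated transcript each insert came from.

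The row of each Kif1b tail was high in the cells given that tail. The row of the Kif1bα tail stood at 16106 (soma) and 13918 TPM (neurites) of its cells, and the row of the Kif1bβ tail at 3269 and 3454 TPM in its own, so the α row was 4.93 times the β row in soma and 4.03 times in neurites. The row of the vector pEGFP-C1 went the other way, at 3.34 (soma) and 25.4 TPM (neurites) with the Kif1bα tail and at 1532 and 1817 TPM with the Kif1bβ tail. It was also low with the Kif1c tail, at 1.41 and 2.43 TPM. It was high with CTG0 (2371 and 2014 TPM) and CTG480 (788 and 1064 TPM). All plasmid rows together took 1.39% and 1.60% of the signal with the Kif1bα tail and 0.431% and 0.595% with the Kif1bβ tail, and an effect of plasmid level and one of the tail's sequence cannot be told apart. In soma of cells with the Kif1bβ tail, the α row was listed at 14.4 TPM. In cells with the Kif1bα tail, the β row was listed at 0.06 (soma) and 0.46 TPM (neurites).

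Kif1b itself was the only protein-coding gene of at least 20 TPM that differed by 0.5 or more in the same direction in both fractions. It stood at 386 (soma) and 363 TPM (neurites) with the Kif1bα tail, against 64.6 and 57.9 TPM with the Kif1bβ tail, a ratio of 5.97 in soma and 6.28 in neurites. In the other 6 libraries it lay between 54.1 and 72.2 TPM, so the library pair of the Kif1bα tail stood apart. The excess was on NM_001290995, the transcript with the β end, at 378 and 355 TPM with the Kif1bα tail and 54.7 and 47.5 TPM with the Kif1bβ tail. NM_008441, the transcript with the α end, stood at 7.58 and 8.22 TPM with the Kif1bα tail and at 9.92 and 10.4 TPM with the Kif1bβ tail, lower by 0.38 and 0.33 on the log2 scale. Cells given the Kif1bβ tail showed no such excess on either transcript. Reads of an insert and of the cell's own transcript cannot be told apart where their sequences are the same. The localization ratio of Kif1b was −0.09 with the Kif1bα tail and −0.16 with the Kif1bβ tail.

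Away from Kif1b, few genes differed in level between the tails in both fractions. Of 9853 genes, 18 (0.183%) were higher with the Kif1bα tail by 0.5 or more in soma and in neurites, and 25 (0.254%) were lower. In soma, whatever the value in neurites, 137 genes (1.39%) were higher and 173 (1.76%) lower. In neurites, whatever the value in soma, 167 (1.69%) were higher and 166 (1.68%) lower. The soma and neurite ratios came from separate libraries, and across genes they were nearly unrelated, with a Pearson's r of 0.01 over 9853 genes and 0.07 over the 5292 protein-coding genes of at least 20 TPM. By the same rule the other 9 pairs of transfections had between 42 and 63 genes past 0.5 the same way in both fractions, against 43 for the 2 Kif1b tails. The SD of the log2 ratio over all genes was 0.25 in soma and 0.25 in neurites, against 0.25 to 0.28 and 0.23 to 0.29 for the other pairs, which share libraries with each other and with the Kif1b pair. Over coding genes of at least 20 TPM the soma SD, 0.152, was above that of the other 9 pairs (0.120 to 0.150).

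**Figure D1:**
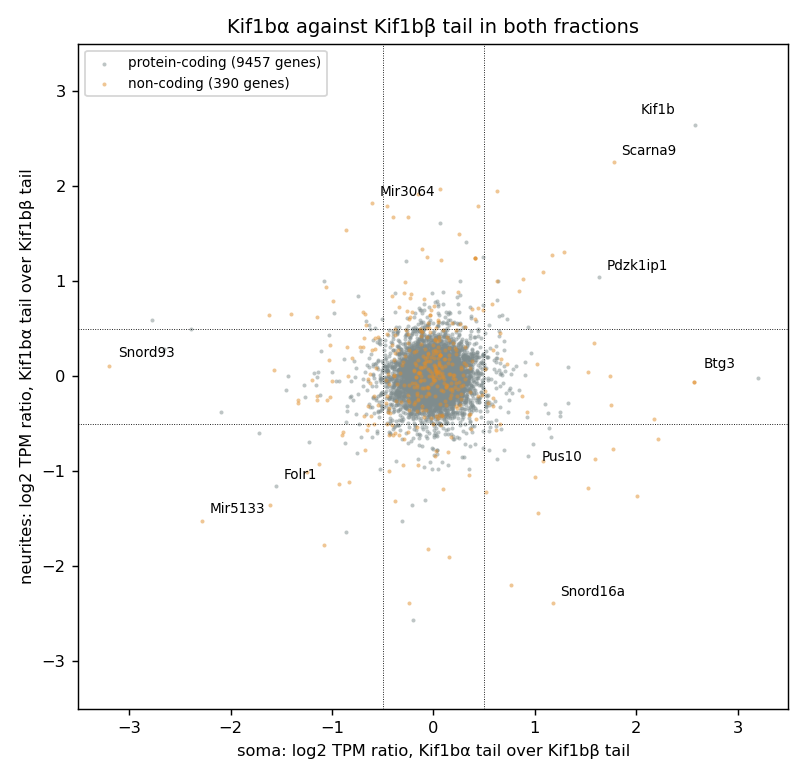
Log2 TPM ratio of the Kif1bα tail over the Kif1bβ tail in soma (x axis) and neurites (y axis), 1 point per gene, for 9847 genes within 3.5 on both axes (6 genes lie outside), with dotted lines at 0.5 and −0.5. Most points form a round cloud about 0, and Kif1b lies alone among coding genes at 2.58 in soma and 2.65 in neurites.

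More genes passed 0.5 in localization ratio than in level, and since this ratio combines 4 libraries its SD over genes, 0.35, was larger by construction. With the Kif1bα tail the ratio was lower by at least 0.5 for 340 genes (3.45%) and higher for 385 (3.91%). Together these were 725 genes, against 610 to 960 for the other 9 pairs. After each column was scaled to a common sum the split was 243 lower and 543 higher. Among the 5292 protein-coding genes of at least 20 TPM, 57 were lower and 65 higher. Of the genes with a lower ratio, the value of the Kif1bα tail alone lay outside the range of CTG0, CTG480 and the Kif1c tail for 29.7%, that of the Kif1bβ tail alone for 22.4%, and both for 38.8%. For the genes with a higher ratio the shares were 23.4, 26.0 and 38.4%. Over all genes they were 23.0, 16.6 and 28.8%, and neither tail lay outside for 31.6% of all genes against 9.12% of those with a lower ratio and 12.2% of those with a higher one.

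A pattern across genes was plainer than the single calls: localization ratios lay closer to 0 with the Kif1bα tail. Genes were placed in bins by their mean ratio in CTG0, CTG480 and Kif1c tail cells, which neither Kif1b library pair entered, over protein-coding genes of at least 20 TPM. For the 194 genes at −0.5 or less, the soma-rich end, the median ratio was −0.36 with the Kif1bα tail and −0.55 with the Kif1bβ tail, and 174 of them (89.7%) were closer to 0 with the Kif1bα tail. For the 79 genes at 0.5 or more, the neurite-rich end, the medians were 0.44 and 0.62, and 58 (73.4%) were closer to 0 with the Kif1bα tail. In the bins between, the median difference went from 0.12 (−0.5 to −0.25) through 0.02 and −0.03 to −0.07 (0.25 to 0.5). The difference lay in neurites: at the soma-rich end the median log2 ratio of the Kif1bα over the Kif1bβ tail was −0.01 in soma and 0.15 in neurites, and at the neurite-rich end −0.01 and −0.13.

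Set against the mean ratio of CTG0 and CTG480, the slope across 5292 genes was 0.64 for the Kif1bα tail, 0.89 for the Kif1bβ tail and 0.71 for the Kif1c tail. Slopes on CTG0 alone were 0.54, 0.83 and 0.68, and on CTG480 alone 0.59, 0.77 and 0.60. The slope of the Kif1bβ tail was the nearest to 1 of the 3 on each of these measures. Genes are not independent replicates, and each slope describes 1 pair of libraries. RNAs known to stay in the nucleus are given as side values. They cannot show carry-over of soma cytoplasm without nuclei into the neurite fraction. Of 10 listed, 5 had at least 5 TPM. Their median ratio was −0.41 with the Kif1bα tail, −0.65 with the Kif1bβ tail and −1.06 to −0.71 elsewhere. Single RNAs went both ways: Malat1 had a lower ratio with the Kif1bα tail (−0.33 against −0.11) and Airn a higher one (−0.41 against −1.06). Malat1 stood at 1290 TPM in neurites with the Kif1bα tail, 1371 TPM with the Kif1bβ tail and 1079 to 1273 TPM elsewhere. The part of carry-over in the pattern was not tested.

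**Figure D2:**
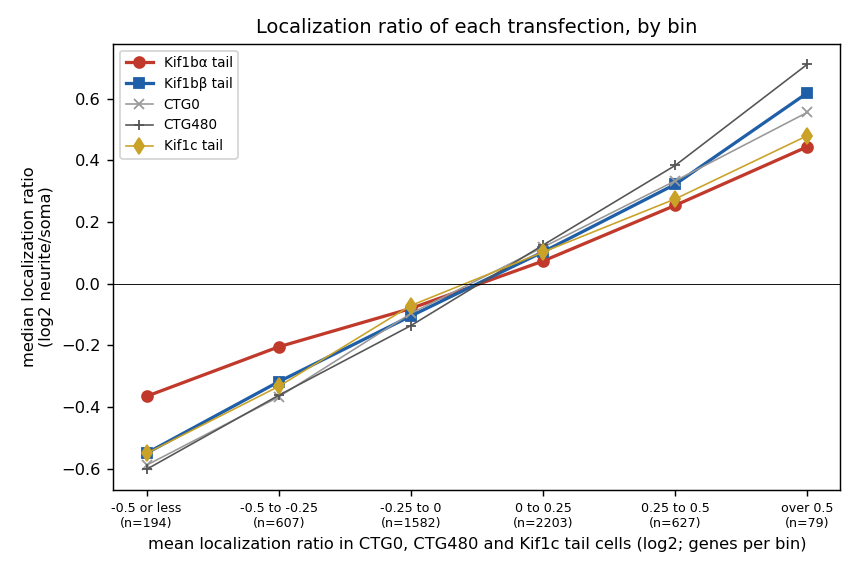
Median localization ratio (log2 neurite/soma, y axis) of the 5 transfections for protein-coding genes of at least 20 TPM, in bins of the mean ratio of CTG0, CTG480 and the Kif1c tail (x axis, genes per bin given). The line of the Kif1bα tail is the flattest, at −0.36 in the lowest bin and 0.44 in the highest, and the Kif1bβ tail runs from −0.55 to 0.62; the other 3 lines take part in the binning.

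The next 4 lists cover lysosomes, the endoplasmic reticulum (ER), the coats of ER to Golgi traffic and cholesterol synthesis. In each, more mRNAs had a higher than a lower localization ratio with the Kif1bα tail, by small amounts. For reading these lists, 32.5% of all genes had a ratio higher by 0.1 or more (1.07-fold) with the Kif1bα tail and 30.5% a lower one, and the median over all genes was 0.01. Of 42 genes of lysosomal enzymes and the proton pump, 28 were higher by 0.1 and 6 lower, with a median difference of 0.15. Chaperones of the ER and the translocon had 25 of 52 genes higher and 6 lower (median 0.09). Of 45 genes of the COPI and COPII coats and ER to Golgi traffic, 23 were higher and 2 lower (median 0.10), and of 24 genes of cholesterol synthesis, 12 were higher and 3 lower (median 0.10). At 0.5 only 0, 1, 2 and 1 members of these lists were higher and 0 were lower, where 3.91% of all genes were higher. Dense core vesicle genes, whose proteins are also secretory, had no such lean at 0.1, with 4 of 14 higher and 4 lower. By any amount, 10 of these 14 had a higher ratio with the Kif1bα tail (median 0.05). In the 4 lists the median log2 ratio of the tails was −0.03, −0.01, −0.03 and −0.03 in soma and 0.10, 0.08, 0.08 and 0.09 in neurites.

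In the lysosomal list the median localization ratio was −0.15 with the Kif1bα tail, −0.31 with the Kif1bβ tail and −0.36 to −0.22 with the other 3, and in the ER list it was −0.17, −0.31 and −0.33 to −0.31. The Kif1bα tail lay outside the range of the other 4 transfections in both. Coding genes with a mean ratio of −0.5 to −0.25 in CTG0, CTG480 and Kif1c tail cells leaned the same way. Of 1119 such genes of at least 5 TPM, 71.8% had a higher ratio with the Kif1bα tail (median difference 0.11). In the lysosomal list 33 of 42 genes had a higher ratio, and in the ER list 41 of 52. Whether any of the 4 lists leaned beyond genes of like ratio was not tested. For cholesterol synthesis it was the Kif1bβ tail, at −0.24, that lay farther from CTG0, CTG480 and the Kif1c tail (−0.12 to −0.10) than the Kif1bα tail did, at −0.09. For the coat list the Kif1bα tail, at −0.01, lay inside the range of the others (−0.10 to 0.03).

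Kdelr1, the receptor that returns escaped ER proteins from the Golgi, stood at 58.0 (soma) and 57.2 TPM (neurites) with the Kif1bα tail and at 74.0 and 45.9 TPM with the Kif1bβ tail. Its localization ratio was −0.02 with the Kif1bα tail, −0.69 with the Kif1bβ tail and −0.52 to −0.31 elsewhere, so both tails lay outside the others, on opposite sides. Dnajb9, an ER co-chaperone, stood at 24.9 and 22.4 TPM with the Kif1bα tail and at 28.5 and 16.0 TPM with the Kif1bβ tail, a difference of localization ratios of 0.67. Differences of the same sign were seen for Ctsa, a lysosomal carboxypeptidase (0.31), Dad1 and Ostc, subunits of the oligosaccharyltransferase (0.42 and 0.37), Yif1a and Tmed3 of ER to Golgi traffic (0.50 and 0.37), mevalonate kinase Mvk (0.65) and the sterol desaturase Sc5d (0.34). The opposite sign was seen for Atp6v1d and Atp6v1e1, subunits of the proton pump (−0.39 and −0.37). It was also seen for Srp54a of the signal recognition particle (−0.41) and for Pmvk, the kinase after Mvk (−0.35).

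**Figure D3:**
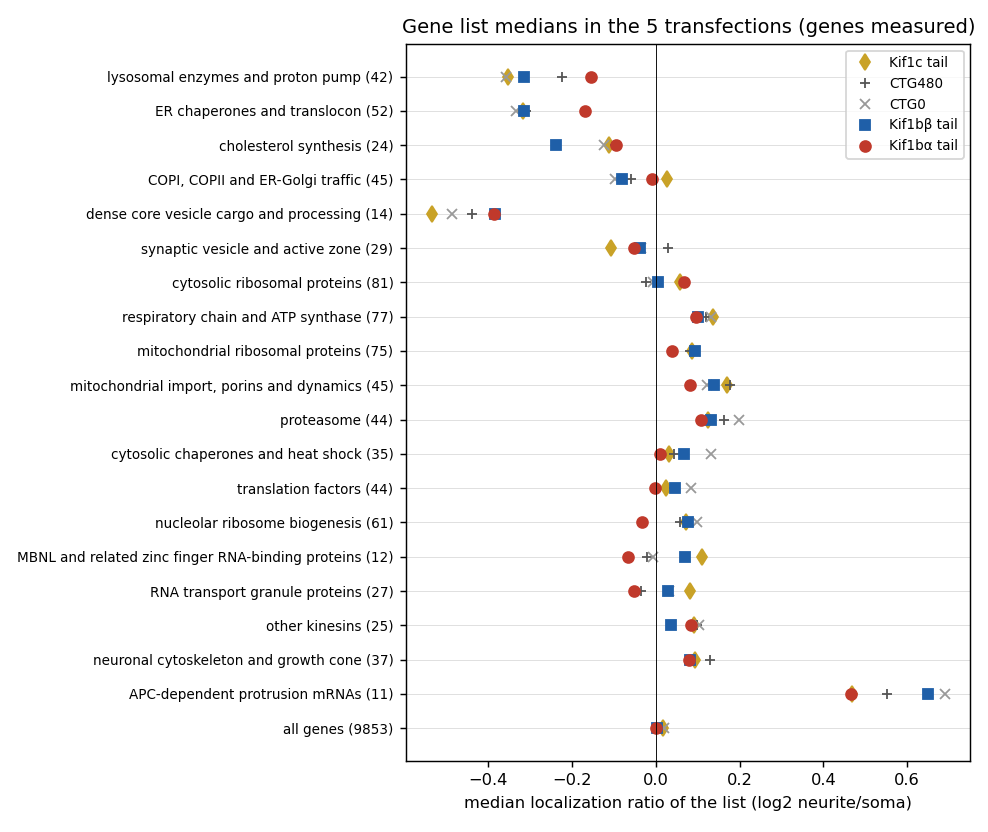
Median localization ratio (log2 neurite/soma, x axis) of 19 gene lists and of all genes in the 5 transfections, with the number of genes measured in brackets. The Kif1bα tail lies to the right of the Kif1bβ tail for the 4 lists at the top. It lies to its left for nucleolar ribosome biogenesis, at −0.03 against 0.08.

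Several lists of nuclear and cytosolic proteins lay the other way. Of 61 genes of nucleolar ribosome biogenesis, 33 were at least 0.1 lower in localization ratio with the Kif1bα tail and 6 were higher, with a median of −0.11. The median localization ratio of the list was −0.03 with the Kif1bα tail, 0.08 with the Kif1bβ tail and 0.06 to 0.10 elsewhere. The list was chosen with this direction known. Polr1e, a subunit of RNA polymerase I, had a difference of −0.74, Wdr12, a 60S assembly factor, of −0.87 and Nop16 of −0.44, while Nop10 of the H/ACA particles stood at 0.52. Polr1e and Wdr12 were low in level, with means of 6.85 and 12.4 TPM, against 36.3 TPM for Nop16 and 36.7 TPM for Nop10. For Wdr12 the value of the Kif1bβ tail (0.85) lay outside the other transfections (−0.88 to 0.20) and that of the Kif1bα tail (−0.02) inside. Cytosolic chaperones had 16 of 35 genes lower and 5 higher (median −0.09), translation factors 16 of 44 lower and 6 higher (−0.06) and the proteasome 15 of 44 lower and 4 higher (−0.08). Other such lists did not share this direction: the cytosolic ribosomal proteins had 28 of 81 genes higher and 14 lower (0.02), and glycolysis and hypoxia genes 9 of 23 higher and 1 lower (0.08). mRNAs that reach protrusions with the APC protein, the most neurite-rich list, had 5 of 11 lower and 0 higher. The median difference was −0.02. The median localization ratio of the list was 0.47 with the Kif1bα tail and 0.65 with the Kif1bβ tail. CTG0 stood at 0.69, CTG480 at 0.55 and the Kif1c tail at 0.47. A median of differences need not equal a difference of medians.

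Ncl encodes nucleolin, an abundant nucleolar RNA-binding protein, and lies on chromosome 1 from 86344719 to 86359455 (mm10). It stood at 203 (soma) and 230 TPM (neurites) with the Kif1bα tail and at 183 and 261 TPM with the Kif1bβ tail. The localization ratio was 0.18 with the Kif1bα tail and 0.51 with the Kif1bβ tail, a difference of −0.33. The other transfections lay at 0.47 (CTG0), 0.28 (CTG480) and 0.13 (Kif1c tail), so the Kif1bα tail lay within their range and the Kif1bβ tail just above it. The level of Ncl with the Kif1bα tail was above all others in soma (171 to 196 TPM) and within the others in neurites (208 to 241 TPM). The study singled out Ncl because, in these libraries, its mRNA was mis-localized with CTG480 and with the Kif1bα and Kif1c tails. It reported the same from RNA in situ hybridization in N2A and CAD cells. It also reported reads crosslinked to MBNL1 (CLIP tags) on the Ncl transcript. MBNL proteins bind YGCY, that is with Y for C or T (TGCT or TGCC or CGCT or CGCC as DNA). The 3′ UTR of the GENCODE transcript of Ncl is 5901 nt long and holds 64 matches on the transcript strand. The first 3 are shown with the match in capitals:
Ncl at 86350494: taaactctgtTGCCagacttaata
Ncl at 86350454: tttggattgtTGCTtaagagcttg
Ncl at 86350427: agaccaactcTGCCcagtgggaat
A match describes the sequence and is not a site. At least 1 match was present in 98.1% of the 8894 3′ UTRs of 100 nt or more.

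The difference of localization ratios between the tails was nearly the same at every density of YGCY. This describes a motif, and whether mRNAs bound by MBNL1 shifted was not tested here. The study used MBNL1 CLIP tags in UTRs instead, for CTG480 against CTG0. For the tails it reported a modest enrichment of mRNAs mis-localized both by CTG480 and by the Kif1bα tail. In quartiles of genes by YGCY per kb of 3′ UTR, the median difference of localization ratios was −0.01 in the lowest quartile and 0.01 in the other 3. Within each quartile of 3′ UTR GC content, the densest quartile of genes differed from the sparsest by −0.01 to 0.01. The level ratio of the Kif1bα over the Kif1bβ tail did fall with density. From the lowest to the highest quartile its median log2 value went from 0.033 to −0.049 in soma and from 0.025 to −0.035 in neurites. The mRNAs of MBNL proteins and of related zinc finger RNA-binding proteins had 6 of 12 genes lower by 0.1 and 0 higher (median −0.09), among them Zc3h15 (−0.33) and Zc3h13 (−0.31). Mbnl1 differed by 0.06 and Mbnl2 by 0.08.

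The mRNAs tied to the known cargo of either form had median differences near 0 as lists. The α form is known for mitochondria: of 77 genes of the respiratory chain and ATP synthase, 31 had a localization ratio higher by 0.1 or more with the Kif1bα tail and 26 a lower one (median −0.01), of 75 mitochondrial ribosomal proteins 25 and 26 (0.00), and of 45 genes of mitochondrial import, porins and dynamics 12 and 17 (−0.05). Within the first list Ndufb4 of complex I stood at 0.70 and Atp5g2, an ATP synthase c subunit gene, at 0.68. The β form is known for synaptic vesicle precursors: of 29 synaptic vesicle and active zone genes, 11 were higher and 7 lower (median 0.04). Of 14 genes of dense core vesicles, 4 were higher and 4 lower (0.05). Of 25 other kinesin genes, 6 were higher and 11 lower (−0.03), with kinesin light chain Klc4 at −0.60, and of 22 partners and adaptors of Kif1b and Kif1c, 4 and 5 (−0.07). The study reports the tail of Kif1c to be more similar to that of Kif1bα than to that of Kif1bβ. Kif1c stood at 12.6 (soma) and 16.7 TPM (neurites) with the Kif1bα tail and at 11.6 and 16.9 TPM with the Kif1bβ tail. Of 20 dynein and dynactin genes, the motor of the opposite direction, 7 were higher and 5 lower (0.04), with the light chain Dynlrb1 at 0.53.

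Among single protein-coding genes of at least 20 TPM, Btg3, an antiproliferative gene on chromosome 16 from 78359860 to 78377181 (mm10), had the lowest difference of localization ratios, −3.22. It stood at 29.8 (soma) and 34.8 TPM (neurites) with the Kif1bα tail and at 3.15 and 35.3 TPM with the Kif1bβ tail. The soma library of the Kif1bβ tail was the low one, since the other 3 soma libraries lay at 16.9 to 20.3 TPM, and its transcript NM_001297747 was listed at 0 there. Pus10, a pseudouridine synthase, stood at 28.5 and 17.8 TPM with the Kif1bα tail and at 14.4 and 29.3 TPM with the Kif1bβ tail, a difference of −1.69. Its localization ratios of −0.67 and 1.02 lay on either side of the others (−0.30 to 0.38). Abhd11, a mitochondrial hydrolase, stood at 25.7 and 19.2 TPM against 17.3 and 26.8 TPM (−1.05), and the others lay between −0.06 and 0.13. Arpc5l, a subunit of the actin-nucleating Arp2/3 complex, stood at −0.84, the transcription factor Vax2 at −0.79, Fmc1, which acts in assembly of the mitochondrial ATP synthase, at −0.76, and Lsm5 at −0.75. Cebpb, Scand1 and Osgep stood at −0.72, −0.72 and −0.71. Of these 7, Arpc5l, Vax2, Fmc1, Lsm5 and Cebpb had both tails outside the other transfections, on opposite sides.

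Gm20594 and Lars2, also among the 12 lowest, are far more abundant in soma. Gm20594 was listed at 89969 (soma) and 8894 TPM (neurites) with the Kif1bα tail and at 73794 and 16036 TPM with the Kif1bβ tail, and it took 6.62 to 7.99% of the signal of the 5 soma libraries. Its difference was −1.14, and that of Lars2, a mitochondrial leucyl-tRNA synthetase, was −0.83. Ribosomal RNA was depleted before the libraries were made, and whether the reads on these rows come from mRNA was not checked.

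At the other end the highest differences belonged to 2 histone genes, Hist1h2ap (1.37) and Hist1h2bp (1.25), of a family of near-identical copies among which reads cannot be assigned with certainty. Of 56 replication-dependent histone genes, 6 were higher by 0.5 or more and 1 lower, and 23 were higher by 0.1 and 22 lower (median 0.00), so the list as a whole did not lean. Hist1h4m, with 0.84, had ratios of −0.53 and −1.37, both below the others (−0.32 to 0.02). Park2, which encodes the ubiquitin ligase parkin, stood at 78.2 (soma) and 32.4 TPM (neurites) with the Kif1bα tail and at 121 and 22.8 TPM with the Kif1bβ tail, a difference of 1.13. Scoc, a Golgi-associated coiled-coil protein, stood at 31.8 and 40.6 TPM against 47.5 and 28.4 TPM (1.09). For both, the 2 tails lay outside the other transfections on opposite sides. Rangrf, the Ran guanine nucleotide release factor, stood at 0.94, Hagh, a glyoxalase, at 0.93, and Bad, a proapoptotic BCL2 family member, at 0.88. Scamp3, a carrier membrane protein, stood at 0.86, Tmem258 of the oligosaccharyltransferase at 0.84, Apoo of the mitochondrial inner membrane at 0.81 and Smap1 at 0.72. For Tmem258 the Kif1bβ tail alone lay outside the other transfections and for Smap1 the Kif1bα tail alone, while for Rangrf, Hagh, Bad, Scamp3 and Apoo both did, on opposite sides.

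**Figure D4:**
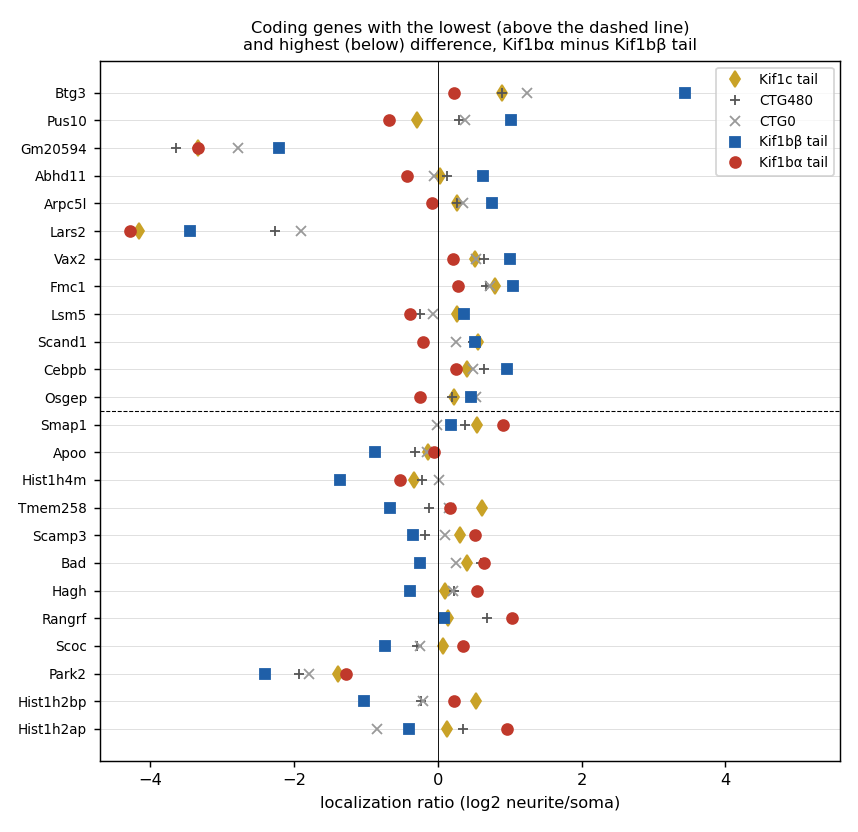
Localization ratio (log2 neurite/soma, x axis) in each of the 5 transfections for the 12 protein-coding genes with the lowest and the 12 with the highest difference, at least 20 TPM. The Kif1bβ tail stands alone at 3.44 for Btg3, and for Pus10, Park2 and Scoc the 2 Kif1b tails flank the other 3.

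Below 20 TPM, 8 further coding genes were higher with the Kif1bα tail by 0.5 or more in both fractions and 12 were lower. Pdzk1ip1, a membrane protein that binds PDZ domains, stood at 26.0 (soma) and 17.5 TPM (neurites) with the Kif1bα tail and at 8.33 and 8.40 TPM with the Kif1bβ tail. The other libraries spanned 14.3 to 24.6 TPM in soma and 6.34 to 24.0 TPM in neurites, so in soma both tails lay outside them, the Kif1bα tail just above and the Kif1bβ tail below, and in neurites both lay inside. Folr1, a folate receptor, stood at 5.24 and 5.03 TPM against 15.5 and 11.3 TPM, lower by 1.55 in soma and 1.16 in neurites. The others spanned 7.07 to 13.7 TPM in soma and 4.69 to 10.9 TPM in neurites. The Kif1bβ tail lay above them in both fractions, and the Kif1bα tail lay below them in soma and inside in neurites. The protease Capn1 (0.64 and 0.63), the calcium-binding protein S100a11 (0.64 and 1.00) and the transcription factor Sp2 (0.62 and 0.80) were among the higher ones. Fgf22, a growth factor of synapses (−0.86 and −1.64), Smim4 (−1.22 and −0.69), Ccdc134 (−0.75 and −0.81), the mitochondrial DNA polymerase subunit Polg2 (−0.71 and −0.64) and the signalling adaptor Sh2b2 (−0.73 and −0.50) were among the lower ones. Above 20 TPM the next values after Kif1b were those of Bscl2, the lipid droplet protein seipin (0.51 and 0.46), and, at the low end, Tssc4 (−0.66 and −0.40).

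Non-coding genes made up 391 of 9853 genes and 22 of the 43 that differed in level in both fractions. With the Kif1bα tail, 88 of them (22.5%) had a localization ratio higher by 0.5 and 55 (14.1%) a lower one, against 3.14 and 3.01% of coding genes. Their SD of the difference was 0.91 against 0.30 for coding genes. Scarna9, a small Cajal body RNA, stood at 123 (soma) and 43.6 TPM (neurites) with the Kif1bα tail and at 35.6 and 9.06 TPM with the Kif1bβ tail. Mir5133 stood at 27.7 and 35.8 TPM against 135 and 103 TPM, and Snora41, which guides pseudouridylation, at 45.3 and 33.8 TPM against 139 and 86.8 TPM. The lowest difference of localization ratios was that of Snord16a (−3.56), and the highest was that of Snord93 (3.31), both guides of ribose methylation. Snord16a was listed at 18.2 TPM in neurites with the Kif1bα tail against 75.6 to 129 TPM with the others, and Snord93 at 127 TPM in soma with the Kif1bβ tail against 30.7 to 52.8 TPM with CTG0, CTG480 and the Kif1c tail and 13.7 TPM with the Kif1bα tail. The C/D box list had a median difference of 0.27 that took the other sign when another transfection was the control (−0.54 against CTG0 and −0.36 against the mean of the other 3). Among 15 snoRNA host genes, spliced transcripts that carry snoRNAs in introns, 9 were higher by 0.1 and 2 lower (median 0.15), with Snhg9 at 2.06, Snhg14 at 1.32 and Snhg3 at 1.09.

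The level ratios between the tails followed base composition, and the difference of localization ratios hardly did. In quintiles of 9410 coding genes by GC content of the leading transcript, the median log2 ratio of the Kif1bα over the Kif1bβ tail went from 0.08 in the lowest quintile to −0.08 in the highest in soma, and from 0.06 to −0.06 in neurites. The median difference of localization ratios went from −0.02 to 0.02. The localization ratio itself rose with GC content under both tails. Its median went from −0.14 to 0.14 with the Kif1bα tail and from −0.11 to 0.12 with the Kif1bβ tail. Spearman's rho of GC content across genes was −0.36 with the soma ratio of the tails and −0.27 with the neurite ratio. It was 0.05 with the difference of localization ratios, as a description of these 4 libraries. Zfp zinc finger genes had positive medians in both fractions (0.03 in soma and 0.07 in neurites over 248 genes). With transcript length the spread differed more than the median: the SD of the difference of localization ratios was 0.44 in the shortest quintile of transcripts and 0.19 in the longest. It was 0.49 in the lowest quintile of coding genes by level and 0.19 in the highest, so values of short or low transcripts spread the most.

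**Figure D5:**
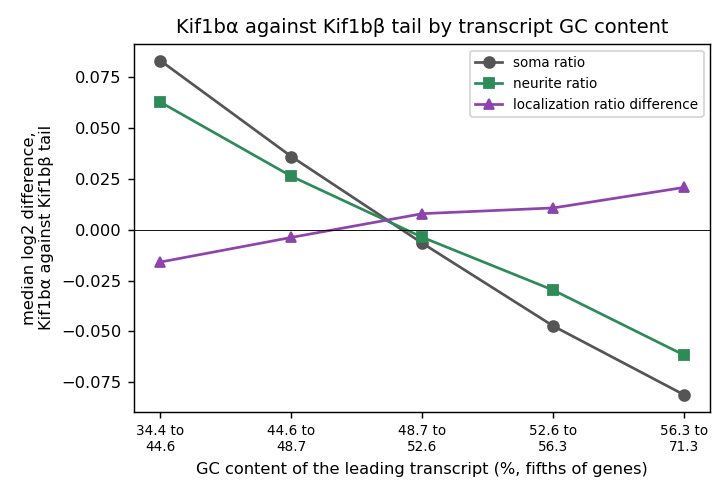
Median log2 difference between the Kif1bα and the Kif1bβ tail (y axis) in quintiles of coding genes by GC content of the leading transcript (x axis, %), for soma, neurites and the difference of localization ratios. Soma and neurite medians slope down together from 0.08 and 0.06 to −0.08 and −0.06, and the localization line stays within 0.02 of 0.

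Of 37 genes of the neuronal cytoskeleton and growth cone, 7 had a localization ratio higher by 0.1 and 15 a lower one (median −0.06), and of 27 RNA transport granule proteins 7 and 9 (−0.02). The interferon response was higher in level with the Kif1bα tail in both fractions, with medians of 0.13 in soma and 0.12 in neurites over 19 genes, of which 15 and 16 were above 0, and 2 reached 0.5 in soma and 0 in neurites. Its localization ratios were lower by 0.1 for 10 genes and higher for 6 (median −0.12). p53 targets and apoptosis genes had a median level ratio of −0.11 in neurites over 27 genes, and localization ratios lower for 13 and higher for 5 (median −0.08). Immediate early genes had localization ratios higher for 7 of 18 genes and lower for 1 (median 0.04). Of the markers of neuroblastoma cells and neurons, 10 of 14 had at least 5 TPM. Of 24 markers of other cell types, 2 did: Acta2 measured 76.7 TPM in soma with the Kif1bα tail and 77.3 TPM with the Kif1bβ tail, and Myh3 85.2 and 78.6 TPM.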

How the data were processed

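Per the labels and the methods of the study, bcl2fastq 2.20 gave the reads, and the authors estimated the abundance of mm10 RefSeq transcripts and of the plasmids in TPM (kallisto 0.43.0). Libraries were then brought to a common scale by cyclic loess. The deposited signal values are these linear TPM, 1 column per library, for 17300 rows. Loess evens out general shifts between libraries, so a general change of level would not show, and soma columns no longer share a sum with neurite columns. A second deposited table, the authors' own log2(neurite/soma) values for transcripts chosen on these samples, was not used.

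The 5 plasmid rows and 3 rows without a gene were left out, rows were summed by gene, and 0.1 TPM was added before log2. Genes needed a mean of at least 5 TPM. With 1 library per transfection and fraction no test was made. Transcript GC content and 3′ UTRs came from GENCODE on GRCm38, which is mm10, and matched 99.5% of coding genes. Named genes are the 12 coding and 5 non-coding genes at each end of both measures at 20 TPM, genes the study names, up to 4 members of each list and, added later, genes past 0.5 in both fractions; among these the text names a selection. Members, lists and rules were chosen with earlier results of these data known. The calculations were tested on simulated data and used Python 3.11.15, numpy 2.4.6 and pandas 2.3.3.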

Additional observations from a re-analysis of the deposited data

Results flagged for a closer look

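For 4 protein-coding genes of at least 20 TPM, the ratio of the Kif1bα over the Kif1bβ tail was past 0.5 in soma one way and past 0.5 in neurites the other way. With 1 library per transfection and fraction, the difference between the fractions was not tested. Pus10 was higher with the Kif1bα tail in soma (0.98) and lower in neurites (−0.72), a difference of localization ratios of −1.69. Its transcript NM_001033654 was listed at 8.52 TPM in soma with the Kif1bα tail and at 6e-05 TPM with the Kif1bβ tail, and at 13.8 TPM with the Kif1c tail. Hist1h2bp (1.25), Park2 (1.13) and Scoc (1.09) were lower in soma and higher in neurites. Among all 9853 genes, 25 went the way of Pus10 and 21 the other way, against 43 that differed the same way in both fractions.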

How the results depend on the processing

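With 1 library per transfection and fraction no replicate could be left out. No paired analysis was possible because each group holds 1 sample and no test was made. The count of genes higher in both fractions (18) was 8 at a mean of at least 20 TPM, 154 with no minimum, 34 against CTG0, 106 for single transcripts and 9 for coding genes alone. The count lower in both (25) was 10, 173, 13 against the mean of CTG0, CTG480 and the Kif1c tail, 113 for single transcripts and 12 for coding genes alone. The count with a lower localization ratio (340) was 94 at 20 TPM, 1239 with no minimum and 925 for single transcripts, and that with a higher one (385) was 125, 1316 and 984, and 236 against the mean of the other 3. Fewer genes or lower levels enter by construction in the first 2 settings.

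Scaling columns to a common sum moved the median difference of all genes from 0.01 to 0.08, of nucleolar genes to −0.028, and of ER, coat and cholesterol genes to 0.17, 0.18 and 0.18. The coat list stood at 0.049 against the mean of the other 3. Median differences of localization ratios that changed sign, against CTG0 and the mean of the other 3, were those of the interferon response (−0.12 as reported, 0.13 and 0.077), C/D box RNAs (0.27, −0.54 and −0.36) and H/ACA RNAs (0.25, −0.078 and −0.075). Genes whose difference of localization ratios changed sign, in the same order, were Fgf22 (−0.78, 0.99 and 0.46), Hist1h4m (0.84, −0.55 and −0.36), Nop10 (0.52, −0.33 and −0.13), Pdzk1ip1 (−0.58, 0.68 and 0.22) and Wdr12 (−0.87, 0.35 and 0.33). Smim4 changed sign against CTG0 (from 0.53 to −0.054) and Tmem258 against the mean of the other 3 (from 0.84 to −0.042). The cause was not tested.

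The flatter localization ratios kept their direction in 5 other settings, chosen for this result after the data were seen, with medians of 0.17 to 0.25 at the soma-rich end and −0.13 to −0.04 at the neurite-rich end.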
